A study of Homo sapiens with 31 samples.

Results

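The heat shock genes described here are 10 chaperone genes: HSPA1A, HSPA1B and HSPA8 of the HSP70 family, HSPH1 and HSPA4L of the HSP110 family, the HSP40 gene DNAJB1, the HSP90 genes HSP90AA1 and HSP90AB1, and the mitochondrial chaperonin genes HSPD1 and HSPE1. They were taken by symbol from a table of 25073 genes, and all 10 had a row. RNA sequencing compared TMD8 cells that carry RHOA p.R5W (R5W, 2 libraries) with TMD8 cells that carry wild-type RHOA (WT, 2 libraries). TMD8 is an established human cell line of the ABC type of diffuse large B-cell lymphoma (DLBCL), and RHOA is a small GTPase that organises the actin cytoskeleton. Both groups had been kept overnight in 50 nM copanlisib, an inhibitor of PI3K, and no group without copanlisib is compared here. The labels do not say whether the R5W cells are 1 clone, nor whether replicates came from separate cultures, so p-values measure the spread between these libraries, which may be technical. The other 27 libraries of the series, from 3 lymphoma lines given ibrutinib, Rhosin or DMSO, were not analysed here.

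Heat shock proteins keep other proteins folded. HSP70 proteins bind unfolded stretches in cycles of ATP hydrolysis that HSP40 partners start and HSP110 partners reset by releasing ADP, and HSP90 then finishes the folding of kinases, steroid receptors and other clients. HSPD1 and HSPE1 form the barrel and the lid of the chaperonin inside mitochondria. Heat and other proteotoxic stress free the transcription factor HSF1 from chaperones, and HSF1 trimers bind heat shock elements, in which the unit GAA and its complement TTC alternate. HSP90 is known for stabilising kinases of B-cell receptor signalling, among them BTK.

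The promoters were searched for such elements because they show how the members differ at the sequence level. In RefSeq's promoter table (GRCh38.p14, 250 bases before to 50 after each start) all 10 genes had a window, 18 windows in all. The letters GAANNTTCNNGAA or TTCNNGAANNTTC, which hold 3 units, were searched on both strands, and either motif can overlap the other. A match was found for 4 of the 10 genes (HSPA8, HSP90AA1, HSP90AB1 and HSPD1), and in 4 of the 18 windows. Of all genes in the promoter table, 0.608% of 27305 hold a match, as do 0.49% of its 35116 windows. With the 2-unit motifs GAANNTTC or TTCNNGAA, 8 of the 10 genes and 9 of the 18 windows had a match, against 16.2% of all genes and 13.5% of all windows. The 30 bases around each 3-unit match are printed below, 5′ to 3′ on the strand of the gene, with the match in capitals. Where a gene has several windows, distances are to the start of the window that held the match. In GENCODE v29, exons covered all 250 bases before that start for HSPA8 and HSPD1, 147 for HSP90AA1 and 77 for HSP90AB1. They belong to the same gene, and for HSPD1 also to HSPE1, so other annotated transcripts of these genes begin further upstream.
HSPA8, chr11:123062345-123062374, minus strand, first matched base 230 bases before the start: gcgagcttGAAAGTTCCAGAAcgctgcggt
HSPA8, chr11:123062170-123062199, minus strand, 55 bases before the start: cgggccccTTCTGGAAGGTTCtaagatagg
HSP90AA1, chr14:102087111-102087140, minus strand, 88 bases before the start: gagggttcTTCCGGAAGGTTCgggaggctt
HSP90AB1, chr6:44247770-44247799, plus strand, 165 bases before the start: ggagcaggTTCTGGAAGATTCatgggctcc
HSP90AB1, chr6:44247823-44247852, plus strand, 112 bases before the start: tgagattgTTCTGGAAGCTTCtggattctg
HSPD1, chr2:197500061-197500090, minus strand, 245 bases before the second of 2 starts: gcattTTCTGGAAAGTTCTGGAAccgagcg

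The HSPD1 stretch holds 2 overlapping matches in 18 bases and lies downstream of the gene's first start. HSPD1 and HSPE1 lie head to head, with starts 105 bases apart, and the nearer end of this stretch's matches lies 294 bases before the start of HSPE1, outside the HSPE1 window, which held no match. HSPA1A and HSPA1B held only a 2-unit match each, and their windows are nearly the same: 277 of 299 bases were equal when aligned at a shift of 1 base. Their stretches around the match are shown for that likeness, and that of HSPA4L because it changed most.
HSPA1A, chr6:31815426-31815455, plus strand: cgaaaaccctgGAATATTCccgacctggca
HSPA1B, chr6:31827622-31827651, plus strand: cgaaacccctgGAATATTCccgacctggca
HSPA4L, chr4:127782141-127782170, plus strand, from the second of 3 windows: tttccagatctTTCTCGAAcccgcagcttc

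A match describes letters and does not show binding, and a window without one says nothing about HSF1.

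The libraries held 21001466 and 19460918 reads in R5W, against 21957337 and 20593155 reads in WT, as recovered from the deposited values. RHOA itself had log2 values of 13.65 and 13.73 in R5W cells and 13.83 and 13.7 in WT cells (log2 fold change -0.07, SE 0.075, adjusted p = 0.531), which checks its level only and not the altered codon. Replicates were less alike in R5W, where the median absolute difference between the libraries was 0.154 on the log2 scale, than in WT, where it was 0.0919. The B-cell markers MS4A1, CD79A, CD79B, PAX5 and CD22 were all expressed. Of these 5, 3 were called lower in R5W: MS4A1 (log2 fold change -0.66), CD79B (-0.29) and CD79A (-0.25). PAX5 at -0.21 (adjusted p = 0.0509) and CD22 at 0.17 (adjusted p = 0.124) did not pass. At an adjusted p under 0.05, 11.9% of all genes tested were lower and 13.1% higher. The summed reads of the 5 B-cell markers made up 0.364% and 0.385% of the R5W libraries, against 0.484% and 0.486% of the WT libraries. Myeloid markers summed to 6 and 13 reads in R5W and 9 and 8 reads in WT, with S100A8 and S100A9 at 0. T-cell markers summed to 44 and 39 reads in R5W and 83 in each WT library, all but 3 of them from CD8A, with CD3D, CD3G and CD2 at 0. The stromal and epithelial markers summed to 444 and 433 reads in R5W, against 219 and 223 reads in WT. Of 3 tested genes, 2 were higher (COL1A1 at 1.33 and PDGFRB at 2.03), while DCN was at -0.05 (adjusted p = 0.917). LUM was at 0 or 1 read and EPCAM at 0. The part of these markers in the results below was not tested. In bulk RNA, fewer cells of a type and less RNA per cell cannot be told apart.

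Levels per transcript length set the members far apart. On the scale of scaled reads per kb of the transcript named in the table, HSP90AB1 stood highest, at 25298 in R5W and 19528 in WT (means, n = 2 each), and HSPA8 followed at 20155 in R5W and 16935 in WT. HSP90AA1 came next with 12278 in R5W and 10782 in WT, then HSPD1 with 10391 in R5W and 8005 in WT. HSPE1 had 4804 in R5W and 3625 in WT, and HSPH1 had 4220 in R5W and 3882 in WT. Those 6 genes lay above the 97th percentile of the 13698 genes tested. The inducible HSP40 gene DNAJB1 was lower, at 1350 in R5W and 1213 in WT. HSPA4L, at 262 in R5W and 161 in WT, and the stress-inducible HSP70 gene HSPA1B, at 142 in R5W and 120 in WT, lay below the median level of tested genes. These levels and ranks depend on the deposited lengths, which were 3674 bases for HSPH1 and 3272 for HSPA4L. The matched GENCODE v29 transcripts have 5191 bases for HSPH1 and 10790 for HSPA4L, which would give lower levels. In GENCODE v29 transcripts 73.5% of the 50-base windows of HSPA1B, against 15.4% of those of HSPA8, also occur in other genes, and how reads with several matches were treated is not given in the sources used here, so the level of HSPA1B and its rank may be too low. As deposited, the log2 ratio of HSPA8 to HSPA1B per length was 7.18 and 7.10 in R5W and 7.15 and 7.13 in WT.

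**Figure D1:**
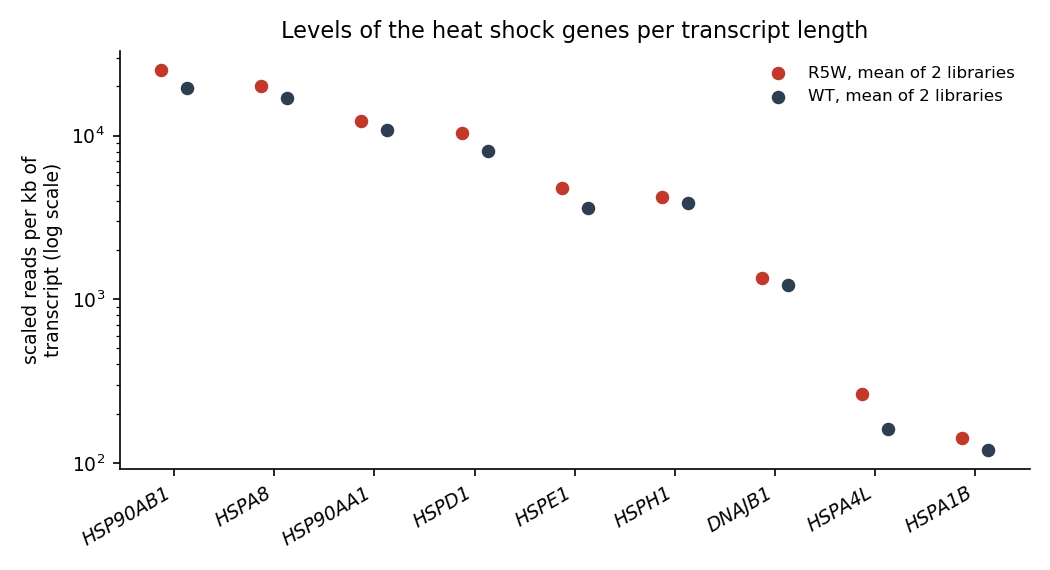
Level of each tested heat shock gene (x axis) as scaled reads per kb of transcript on a log axis, with the mean of the 2 R5W libraries (red) left of the mean of the 2 WT libraries (dark). The genes run from HSP90AB1, at 25298 in R5W and 19528 in WT, to HSPA1B, at 142 in R5W and 120 in WT; HSPA1A, with at most 2 reads, is not drawn.

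Across the 9 members tested, 5 rose in R5W cells and 0 fell: HSPA4L, HSPE1, HSPD1, HSP90AB1 and HSPA8. The members, and the lists given further below, were chosen with earlier results of these data known. The shares of all genes beside their counts are therefore a description and no test. Of all 13698 genes tested, 13.1% were called higher and 11.9% lower. Among the 9100 genes with a mean log2 of 8 or more, a level that all 9 members reach, 14.8% were called higher and 14.3% lower. These genes are not matched to the members in level. HSPA1B, the lowest tested member, averaged 8.495 in R5W and 8.248 in WT, and the highest, HSP90AB1, 15.97 in R5W and 15.6 in WT. The members' log2 fold changes ran from 0.12 to 0.70 with a median of 0.25, against a median of 0.01 over all genes. All 9 were positive, as were 51.5% of all genes. The members together took 0.819% and 0.784% of the reads in R5W, against 0.65% and 0.679% in WT. Both R5W libraries lay above both WT libraries for 8 of the 9. That pattern was shown by 32.4% of all genes and by 34.3% of genes with a mean log2 of 8 or more. The opposite pattern was shown by 30.6% of all genes. A gene was called when its limma p, adjusted by Benjamini-Hochberg over all genes tested, was under 0.05, and all 9 members had passed the filter on low values in all 4 libraries. The calls depend on the libraries in hand, for the members as for all genes. The members' median was 0.241 without WT replicate 1, 0.266 without WT replicate 2, 0.217 without R5W replicate 1 and 0.318 without R5W replicate 2. With limma's trend and robust options off, only HSPA4L was called among the members. Of all genes, 480 were then called higher and 420 lower.

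**Figure D2:**
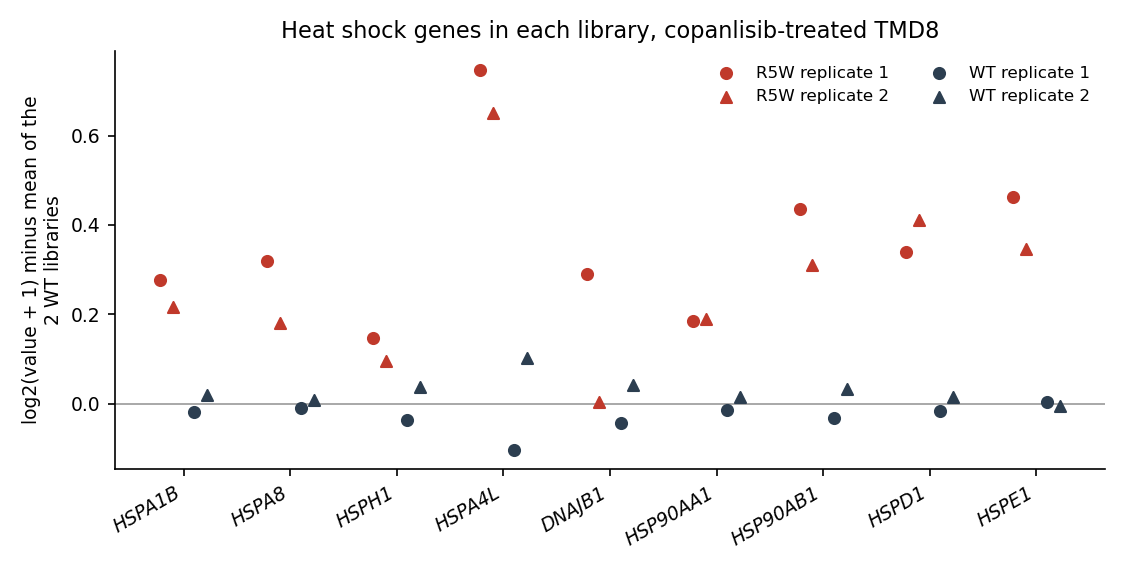
The log2(value + 1) of each tested heat shock gene minus the mean of the 2 WT libraries (y axis), with R5W libraries in red left of WT libraries in dark, and circles for replicate 1 and triangles for replicate 2. Every red point lies above both dark points of its gene except R5W replicate 2 of DNAJB1, which lies between them.

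Among the HSP70 genes, HSPA8 rose modestly. HSPA8 encodes HSC70, the constitutive HSP70 of the cytosol, which also uncoats clathrin vesicles. Its log2 values were 15.55 and 15.41 in R5W cells, against 15.22 and 15.24 in WT cells. Both R5W libraries were above both WT libraries, and the R5W pair was the more spread. The fold change was 0.25 on the log2 scale (SE 0.072, adjusted p = 0.0228), or 18.9% higher in R5W. This call was lost without R5W replicate 1 (0.18, adjusted p = 0.0643), WT replicate 1 (0.24, adjusted p = 0.245) or WT replicate 2 (0.26, adjusted p = 0.202).

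HSPA1A and HSPA1B encode the stress-inducible HSP70 proteins, and the table cannot separate them well. HSPA1B held 299 and 267 reads in R5W and 255 and 249 reads in WT, or log2 values of 8.52 and 8.46 in R5W and 8.22 and 8.26 in WT. The groups did not overlap, yet the change of 0.25 on the log2 scale (SE 0.124, 95% interval -0.02 to 0.51, adjusted p = 0.169) did not pass. HSPA1A held 2 and 0 reads in R5W and 0 and 1 reads in WT, was left out by the filter, and is given no fold change because both groups lie under 3 reads. In GENCODE v29 transcripts, 72.6% of the 50-base windows of HSPA1A also occur in HSPA1B, so reads of the pair cannot be placed with certainty. UBB, a polyubiquitin gene used by every cell, is listed at 0 in all 4 libraries of this table, so a value near 0 here does not show that a transcript is absent. With both genes summed, the log2 fold change was 0.25 (adjusted p = 0.166).

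Of the HSP110 genes, HSPA4L rose and HSPH1 did not pass. HSPA4L, a member best known from testis and stressed cells, changed most of all members, with log2 values of 9.79 and 9.69 in R5W cells against 8.94 and 9.14 in WT cells. In reads, HSPA4L had 720 and 627 in R5W, against 418 and 459 in WT, and the groups were well apart. Its log2 fold change was 0.70 (SE 0.109, 95% interval 0.46 to 0.93, adjusted p = 0.00051), a fold of 1.62, and the call held under each alternative, with adjusted p between 2.96e-11 and 0.0491. HSPH1, which encodes HSP105, a cytosolic nucleotide exchange factor of HSP70, had 13.95 and 13.89 in R5W and 13.76 and 13.84 in WT. The R5W libraries of HSPH1 were above its WT libraries but close to them, and its fold change of 0.12 on the log2 scale (SE 0.071, 95% interval -0.03 to 0.27, adjusted p = 0.245) did not pass. The log2 ratio of HSPA4L to HSPH1 per length was -3.99 and -4.03 in R5W, against -4.66 and -4.53 in WT. The difference of 0.58 had an exact two-sided permutation p of 0.333, the smallest that 2 libraries against 2 allow.

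DNAJB1, the HSP40 partner that delivers substrates to HSP70 and restrains HSF1, did not pass. Its log2 values were 11.7 and 11.41 in R5W, against 11.36 and 11.45 in WT. R5W replicate 1 was above the others, and R5W replicate 2 lay between the WT libraries. The log2 fold change was 0.15 (SE 0.096, 95% interval -0.06 to 0.35, adjusted p = 0.298). It was 0.003 without R5W replicate 1 and 0.29 without R5W replicate 2, where it passed (adjusted p = 0.000134).

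Of the HSP90 genes, the constitutive HSP90AB1 rose and the inducible HSP90AA1 did not pass. HSP90AB1 had log2 values of 16.04 and 15.91 in R5W cells, against 15.57 and 15.63 in WT cells, so that the groups were clearly apart. The log2 fold change was 0.37 (SE 0.072, adjusted p = 0.00226), or 29.5% higher. It did not pass without WT replicate 1 (0.34, adjusted p = 0.0868). HSP90AA1 had 15.54 and 15.55 in R5W, against 15.34 and 15.37 in WT. The replicates of HSP90AA1 were close in both groups, and its change of 0.19 on the log2 scale (SE 0.067, 95% interval 0.04 to 0.33, adjusted p = 0.0572) missed the threshold. It passed with voom on recovered reads (0.19, adjusted p = 0.045), but not with quantile normalization (0.13, adjusted p = 0.188). The log2 ratio of HSP90AB1 to HSP90AA1 per length was 1.11 and 0.977 in R5W, against 0.839 and 0.875 in WT. The difference of 0.185 again had the smallest p that the design allows (exact two-sided permutation p = 0.333).

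Both genes of the mitochondrial chaperonin rose, by nearly equal amounts. HSPD1, which encodes HSP60, had log2 values of 14.53 and 14.6 in R5W cells, against 14.17 and 14.2 in WT cells, with a fold change of 0.38 on the log2 scale (SE 0.07, adjusted p = 0.00178). HSPE1, which encodes HSP10, had 12.23 and 12.11 in R5W, against 11.77 and 11.76 in WT, and it rose by 0.40 (SE 0.077, adjusted p = 0.00209). Neither gene's groups overlapped, and the rises came to 29.8% for HSPD1 and 32.4% for HSPE1. The log2 ratio of HSPD1 to HSPE1 per length averaged 1.11 in R5W and 1.14 in WT, a difference of -0.029 (exact two-sided permutation p = 1). Leaving out WT replicate 1 or 2 ended both calls, at 0.36 and 0.39 for HSPD1 and 0.41 and 0.40 for HSPE1, with adjusted p from 0.053 to 0.0795. Of the 50-base windows, 52.9% in HSPE1 and 25% in HSPD1 also occur in transcripts of other genes on either strand. HSPD1 is itself the gene that shares most with HSPE1 (25.7% of its windows), so the reads of the pair, and their ratio, may not be fully independent. The count did not separate the strands, and whether such windows share reads in libraries of a stranded kit was not tested.

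**Figure D3:**
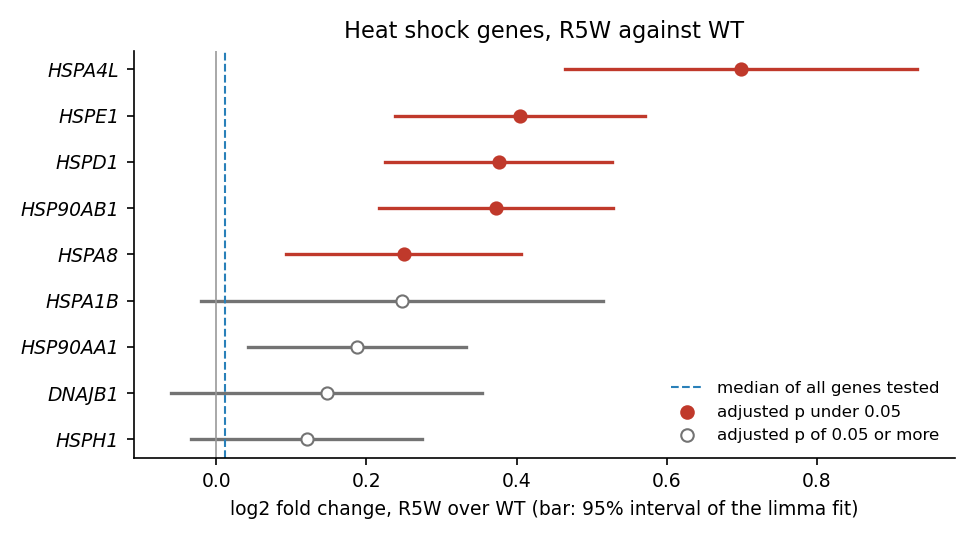
Log2 fold change of R5W over WT (x axis) for each tested heat shock gene, with the 95% interval of the limma fit as a bar, red where the adjusted p was under 0.05 and open grey otherwise. HSPA4L stands highest at 0.70 and HSPH1 lowest at 0.12, while the dashed line marks the median of all genes tested at 0.01.

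The replicates of a group were not level across the tested members. R5W replicate 1 was above R5W replicate 2 for 7 of the 9, the exceptions being HSP90AA1 and HSPD1, and WT replicate 2 was above WT replicate 1 for 8 of the 9, the exception being HSPE1. HSP90AB1 lay nearest to the members' mean profile, at a Euclidean distance of 0.0662 over the 4 centred log2 values, and HSPA4L lay farthest at 0.401. Outside the members, the nearest profiles of the genes tested were those of KIF7 (distance 0.00912), KLHL8 (0.0206), FBXO45 (0.025), SLCO5A1 (0.0252) and ODC1 (0.0253). KIF7 encodes a kinesin of the Hedgehog pathway and ODC1 the first enzyme of polyamine synthesis. With only 4 points per gene, such likeness is weak, and 3 of these 5 remained when HSPA1B was left out of the mean profile.

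Of 4 genes of heat shock factors and their regulator, 1 rose and 0 fell, against 13.1% higher and 11.9% lower of all genes. HSF1, the main activator of the response, had log2 values of 11.43 and 11.28 in R5W cells, against 11.15 and 11.09 in WT cells (log2 fold change 0.24, SE 0.084, adjusted p = 0.0549). HSF2, which can form mixed trimers with HSF1, rose by 0.41 (SE 0.124, adjusted p = 0.0286), with 8.56 and 8.65 in R5W against 8.18 and 8.21 in WT. HSF4, known from the lens, was at -0.33 (adjusted p = 0.0608), and HSBP1, a small protein that binds HSF1, was at 0.17 (adjusted p = 0.137).

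A list of 24 other heat shock response genes gave 3 that rose and 0 that fell among 21 tested, or a median log2 fold change of 0.11. That share was near the 13.1% of all genes called higher. FKBP4, an immunophilin in steroid receptor complexes, rose by 0.40 (adjusted p = 0.00254), with 13.33 and 13.14 in R5W against 12.83 and 12.82 in WT. PTGES3, the co-chaperone p23, rose by 0.29 (adjusted p = 0.00876), and STIP1, which links HSP70 to HSP90, by 0.21 (adjusted p = 0.0499). Among the 18 tested genes of the list that did not pass, BAG3 was at 0.12 (adjusted p = 0.603), HSPB1 at -0.09 (adjusted p = 0.673), DNAJA1 at 0.11 (adjusted p = 0.304) and HSPA6 at -0.83 (adjusted p = 0.172). HSPA6, often used as a mark of a full heat shock, held few reads, with log2 values of 4.47 and 3.57 in R5W against 5.23 and 4.55 in WT.

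Among 20 further co-chaperones, 3 rose and 2 fell, shares near the 13.1% higher and 11.9% lower of all genes. Of 9 further HSP90 co-chaperones, 0 rose and 1 fell, the myosin chaperone UNC45A, by 0.34 (adjusted p = 0.0139). Of 11 HSP70 co-chaperones, 3 rose and 1 fell. The nucleotide exchange factors BAG1 and BAG2 rose by 0.42 (adjusted p = 0.00378) and 0.44 (adjusted p = 0.00929), and the ribosome-bound HSP40 DNAJC2 by 0.28 (adjusted p = 0.0264), while DNAJB2 fell by 0.50 (adjusted p = 0.00122). The median log2 fold change was -0.01 for the HSP90 list and 0.05 for the HSP70 list, close to that of all genes.

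The TRiC chaperonin, the cytosolic counterpart of HSPD1 and HSPE1 that folds actin and tubulin, had 5 of 8 subunits called higher and 0 lower, against the 13.1% and 11.9% of all genes. CCT2 rose by 0.35 (adjusted p = 0.00322), CCT5 by 0.33 (adjusted p = 0.00393), CCT8 by 0.30 (adjusted p = 0.00749), CCT6A by 0.28 (adjusted p = 0.0116) and CCT4 by 0.23 (adjusted p = 0.027). The other subunits were TCP1 at 0.21 (adjusted p = 0.0562), CCT7 at 0.18 and CCT3 at 0.14. Prefoldin, which passes actin and tubulin to TRiC, had 2 of 6 subunits higher, PFDN2 by 0.48 (adjusted p = 0.0165) and PFDN4 by 0.38 (adjusted p = 0.048), and 0 lower. The other prefoldin subunits were PFDN1 at 0.04, PFDN6 at 0.005, VBP1 at -0.01 and PFDN5 at -0.14. Prefoldin's median was 0.02, close to the 0.01 of all genes.

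In mitochondria, 5 of 10 other chaperone and protease genes rose and 0 fell, against the same 13.1% and 11.9%, with a median log2 fold change of 0.23. TRAP1, the mitochondrial HSP90, rose by 0.43 (adjusted p = 0.00174), and GRPEL1, the exchange factor of mitochondrial HSP70, by 0.39 (adjusted p = 0.0179). HSPA9, that HSP70 itself, rose by 0.30 (adjusted p = 0.00706), its HSP40 partner DNAJA3 by 0.30 (adjusted p = 0.0124) and the inner membrane protease AFG3L2 by 0.27 (adjusted p = 0.022). The proteases LONP1 at 0.18 (adjusted p = 0.0927) and CLPP at 0.08 did not pass.

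In the endoplasmic reticulum, 4 of 16 chaperone and stress genes rose and 0 fell, against 13.1% higher and 11.9% lower of all genes, with a median of 0.12. They were MANF, listed under its older symbol ARMET (0.46, adjusted p = 0.00166), SDF2L1 (0.44, adjusted p = 0.0173), HYOU1, the HSP110 of that compartment (0.33, adjusted p = 0.0165), and HSPA5, its HSP70 known as BiP (0.26, adjusted p = 0.0181). HSP90B1, its HSP90, was at 0.22 (adjusted p = 0.0752), and XBP1 at 0.11 (adjusted p = 0.455).

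Stress genes of other kinds were set beside the chaperones. Of 8 immediate early genes tested, IER3 rose by 0.95 (adjusted p = 0.000495), EGR1 by 1.15 (adjusted p = 0.0242, on 36 and 48 reads in R5W against 25 and 15 in WT), and ZFP36 fell by 0.49 (adjusted p = 0.00154), with a list median of 0.26. Of 10 ATF4 targets, SLC7A11, the cystine importer, fell by 2.12 (adjusted p = 9.06e-06) and 0 rose. Like the members, these lists were chosen with earlier results of these data known. Over all lists other than the 10 members and the cell markers, 25 of 103 tested genes were called higher and 4 lower, against 13.1% and 11.9% of all genes. With limma's trend and robust options off, 1 of these genes was called higher and 1 lower, beside 480 higher and 420 lower of all genes. Leaving out a library also changed the counts of these lists, and with them the number called over all genes.

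**Figure D4:**
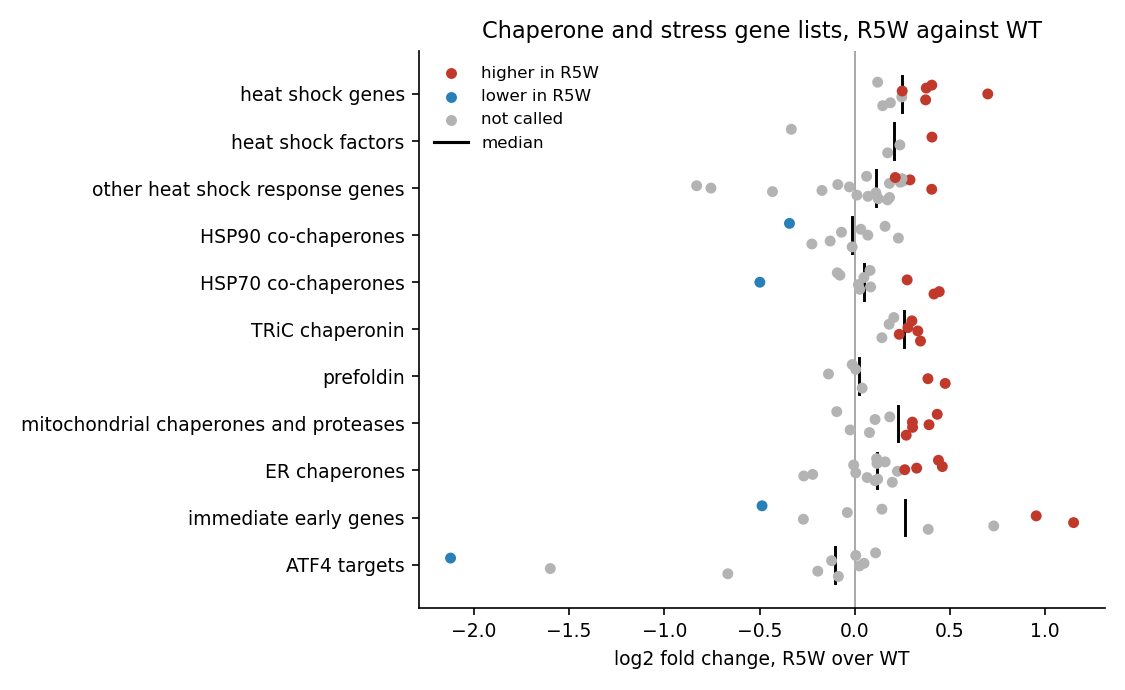
Log2 fold change of R5W over WT (x axis) for every tested gene of the chaperone and stress lists (rows), with red points called higher in R5W, blue points called lower, grey points not called, and a black bar at each list's median. The medians run from -0.10 (ATF4 targets) to 0.26 (TRiC and immediate early genes), with the heat shock genes at 0.25, the mitochondrial list at 0.23, the heat shock factors at 0.21, and the HSP90 and HSP70 co-chaperones at -0.01 and 0.05.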

How the data were processed

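Per the labels' protocols, the R5W and WT libraries were made with a stranded mRNA kit and sequenced from both ends. The series names STAR, RSEM, Picard, cutadapt and bcl2fastq and the builds hg19 and GRCh37, per the submitters' processing notes; which of them served this table is not given in the sources used here. The authors deposited log2 values, which proved to be the log2 of a read count times 1 factor per library: with the log undone, 100% of values up to 200 reads were whole within 0.1 read. The values were made linear and fitted with limma 3.58.1 (R 4.3.3, trend and robust) as log2(value + 1), for 13698 genes with a value of 10 or more in at least 2 libraries, and p-values were adjusted by Benjamini-Hochberg. Fold changes on this scale understate changes of low genes. Depth bounds counting error only, as reads carried no molecular identifiers. On simulated counts of 13671 genes, 76.1% of genes changed by 0.5 (log2) and 100% of those changed by 1 or by 2 were recovered, with 12 false calls. The simulation changed few genes and gave all genes the same dispersion in both groups. The real R5W replicates differed more (median 0.154) than the WT replicates (0.0919). These rates therefore check the code and do not measure the error in these data. Replicate deviations of R5W and WT had a correlation of -0.0608 across genes, so the numbers do not pair the libraries. The table's 27 symbols turned into dates were tested without names. Ratios of relatives were compared by exact permutation tests (scipy 1.17.1). Named are all members, RHOA, all heat shock factors, the 5 nearest profiles and up to 5 called genes per list. Other list genes were named after their values were seen. Levels per kb used the transcript lengths the authors deposited. The members and lists were chosen with earlier results of these data known. 1 marker gene is not reported here.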

Additional observations from a re-analysis of the deposited data

How the results depend on the processing

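All 9 member fold changes kept their sign under each of 13 alternatives (pseudocounts, filters, scalings, variance model, voom, block, each library left out). For most of these the sign could not turn. Filters, variance model and block leave a member's fold change as it is. Leaving out 1 library cannot turn the sign where the groups do not overlap. Only DNAJB1 had overlapping groups, and it was at 0.003 without R5W replicate 1. Scaling moved the median of all genes by less than 0.1. The number of genes called was 3428. It fell to 900 with limma's trend and robust options off, where 1 member and 2 genes of the other lists were called and HSPA8 (0.249), HSP90AB1 (0.372), HSPD1 (0.376) and HSPE1 (0.405) no longer passed. It ran from 1024 to 5668 with 1 library left out, the members called from 1 to 6, their median from 0.217 to 0.318, and the genes called in other lists from 3 to 52, against 29. Over those fits HSPA8 ran from 0.180 to 0.318, HSPD1 from 0.340 to 0.412, HSPE1 from 0.346 to 0.463, HSP90AB1 from 0.310 to 0.435 and DNAJB1 from 0.003 to 0.291. Calls fell when a WT library was left out and the wider R5W pair remained. HSP90AA1 (0.187, adjusted p = 0.045) passed with voom on recovered reads. It did not pass with quantile normalization (0.126, adjusted p = 0.188), median ratio scaling (0.174, adjusted p = 0.0816) or trend and robust off (0.187, adjusted p = 0.206). Quantile normalization also lowered HSP90AB1 from 0.372 to 0.276, which still passed (adjusted p = 0.00928). With the replicate block 3713 genes and 6 members were called, HSP90AA1 (0.187, adjusted p = 0.0474) among them. Since the numbers do not pair the libraries, this says nothing of effect size. Median ratio scaling moved the share of higher calls from 52.3% to 49%. With 2 units in place of 3, 8 members held a heat shock element. Leaving HSPA1A and HSPA1B out of the mean profile kept 3 of the 5 nearest genes.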
